A study of Mus musculus with 3 samples.

Results

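The 75 genes described here carry names that start with Mrpl or Mrps followed by a digit, the names given to the proteins of the mitochondrial ribosome. The members were chosen by name from 27745 gene names on the array, and 125 probes represent them. The family itself was selected on the ratios between the siRNAs on these same arrays, so its values are given as a description and no test was made on them. By name, 46 genes belong to the large and 29 to the small subunit. By the known structure of the mammalian mitochondrial ribosome, 48 encode proteins of the large subunit, Mrps18a and Mrps30 among them, and 26 encode proteins of the small subunit. Mrps36 is now known as a subunit of the 2-oxoglutarate dehydrogenase complex and is counted in neither.

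The cells were a culture of stromal cells from lymph nodes of the BALB/c strain, transfected with 400 pmol of siRNA against Eif4g3 or with 400 pmol of control siRNA and harvested after 48 h. Eif4g3 encodes eIF4GII, a scaffold of the complex that recruits ribosomes to capped mRNAs. Cells of 7 plates were pooled for each siRNA before lysis, and the lysate was separated on a sucrose gradient running between 10% and 60% into a top, a light polysome and a heavy polysome fraction. Each fraction was hybridised to a 2-colour array of its own, with the Eif4g3 siRNA sample in Cy5 and the control siRNA sample in Cy3, without a dye swap. All 3 arrays lay on 1 slide. There were no replicates, so no p-value is given, and a difference between fractions cannot be told apart from a difference between arrays or dyes.

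Mitochondrial ribosomes translate the few proteins encoded by the mitochondrial genome, which are core subunits of the respiratory chain and of ATP synthase. All proteins of these ribosomes are encoded in the nucleus, translated by cytosolic ribosomes and imported. Many descend from bacterial ribosomal proteins, and others are found in mitochondria alone. The arrays therefore measured how the mRNAs for one kind of ribosome were distributed over a gradient of the other kind.

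The siRNA target had a log2 ratio (Eif4g3 siRNA over control siRNA, as for every ratio below) of -0.43 ± 0.16 at the top, -1.06 ± 0.16 in light polysomes and -1.77 ± 0.19 in heavy polysomes. Each error given with ±, called the spot error below, was built from the scanner software's errors for single spots. These were combined over the probes of a gene, and over both arrays for a difference, as if independent. The spot error leaves out biological replication and disagreement between probes, and the software computed it for ratios less compressed than those used here. All 9 fibroblastic stroma markers on the list were measured on every array. Of the endothelial markers on the array 0 of 6 were measured in the top and 1 of 6 in the other fractions, of the leukocyte markers 1 of 9 and 4 of 9, and of the epithelial markers 0 of 5 and 1 of 5. The median ratio of the stroma markers was -0.15, -0.01 and -0.44 in the top, light and heavy fraction, and the part of cell make-up in the results below was not tested. In such samples, fewer cells of a type and less RNA per cell cannot be told apart.

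A probe counted as measured when both channels were well above background, which held for 34.8% of all probes on the top array, 50.2% on the light array and 51.6% on the heavy array. Of the 125 probes for mitochondrial ribosomal proteins, 103, 115 and 115 were measured. Before normalization the median log2 signal of these probes was 8.62 on the top array, 11.65 on the light array and 11.76 on the heavy array. Over all measured probes it was 7.16, 8.86 and 9.19. All 75 genes were measured in the light and heavy fractions, and 74 in the top fraction. The exception was Mrps27, a mitochondria-specific small-subunit protein, whose single probe (mm8, chr13:100515234-100515293, plus strand) was not well above background in the Eif4g3 siRNA channel there.

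The 5 promoters below are shown first because they belong to the genes at both ends of the heavy minus top difference described below. Each line gives the 120 bases just before the annotated start, from RefSeq on build GRCm38.p6, written along the strand of the gene. The first 3 genes had the highest differences and the last 2 the lowest. Capitals mark the ETS-family motif CCGGAAG in Mrpl3 and the NRF1 core motif GCATGCG, here on both strands with overlap, in Mrpl9. ETS-family factors and NRF1 are known activators of nuclear genes for mitochondrial proteins.
Mrpl41, chr2:24975099-24975218, minus strand: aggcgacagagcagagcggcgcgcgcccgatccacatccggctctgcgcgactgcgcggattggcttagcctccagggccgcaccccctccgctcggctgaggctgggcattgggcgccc
Mrpl3, chr9:105053148-105053267, plus strand: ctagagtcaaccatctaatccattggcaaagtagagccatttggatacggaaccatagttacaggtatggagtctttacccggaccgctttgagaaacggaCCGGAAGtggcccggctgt
Mrpl14, chr17:45686229-45686348, plus strand: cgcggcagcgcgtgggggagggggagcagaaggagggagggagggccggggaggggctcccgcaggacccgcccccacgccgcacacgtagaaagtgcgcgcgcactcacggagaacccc
Mrpl47, chr3:32736756-32736875, minus strand: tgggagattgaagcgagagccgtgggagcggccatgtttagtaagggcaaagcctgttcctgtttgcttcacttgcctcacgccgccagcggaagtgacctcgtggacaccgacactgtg
Mrpl9, chr3:94443216-94443335, plus strand: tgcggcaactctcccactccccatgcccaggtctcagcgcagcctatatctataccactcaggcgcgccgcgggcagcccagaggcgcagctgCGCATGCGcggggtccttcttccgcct

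Most mitochondrial ribosomal protein mRNAs had a lower signal relative to other mRNAs of the top fraction after Eif4g3 siRNA. With loess the family median lay nearer to 0 in both polysome fractions, but with median centring it lay 0.20 above all genes in the light fraction, a difference about as large as in the top fraction. In the top fraction 62 of 74 genes had a log2 ratio below 0 and 12 above 0, while 50.4% of all genes lay above 0. The median was -0.21, against 0.00 over all 10934 genes measured there. The values ran between -1.18 and 0.26. Of the members 3 were lower by 2-fold or more, the threshold used for a call, and 0 were higher. Over all genes 0.265% were lower and 0.43% higher, shares that depend on the background correction. With an offset of 0 in it, 82 of the 10934 genes were lower and 109 higher. With the scanner software's ratio 146 were lower and 151 higher, and 3 members were lower with either. Past 1.5-fold in either direction there were 6 of 74 genes, or 8.11%, with a background of 5.29%. The count past 1.5-fold was thus near the background, while the side of 0 on which the members lay was not.

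In the light polysome fraction the median was -0.05, against 0.02 over all genes, and 28 of 75 genes lay above 0 where the background was 52.6%. No member reached 2-fold in either direction, against a background of 0.397% higher and 0.291% lower. One gene passed 1.5-fold, with a background of 6.11%. In the heavy polysome fraction the median was 0.06, against -0.01 over all genes, and 44 of 75 genes lay above 0 where the background was 48.3%. No member reached 2-fold there either, with 0.507% of all genes higher and 0.306% lower, and 0 passed 1.5-fold, with a background of 7.24%. The side on which the family lay in these polysome fractions depended on scaling. With each array centred on its median in place of loess, the median of all genes moved to 0.62 in light polysomes and -0.73 in heavy polysomes. The family then lay 0.20 above all genes in the light fraction and 0.02 below them in the heavy fraction, whereas in the top fraction it lay 0.22 below them, as with loess.

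**Figure D1:**
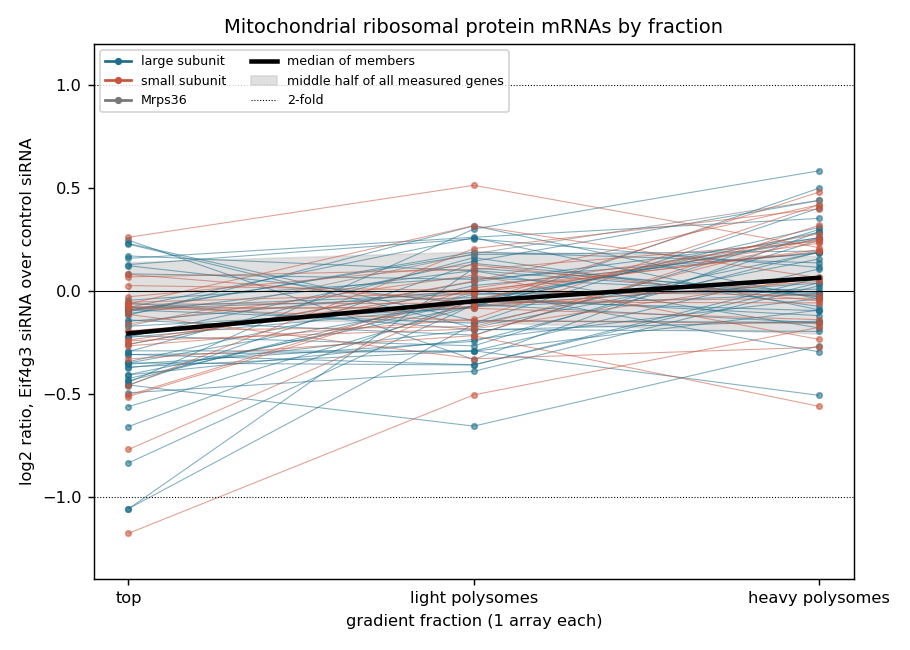
Log2 ratio (Eif4g3 siRNA over control siRNA, vertical axis) of each mitochondrial ribosomal protein gene in the top, light polysome and heavy polysome fraction (horizontal axis, 1 array each), coloured by subunit, with the family median in black and the interquartile range of all measured genes in grey. The family median was -0.21 at the top, -0.05 in light polysomes and 0.06 in heavy polysomes, and the side of 0 in the light and heavy fractions changed with median centring in place of loess.

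The 3 genes that fell by 2-fold or more in the top fraction were Mrps6, Mrpl3 and Mrpl41. Mrps6, a small-subunit protein of the bacterial S6 family, had a log2 ratio of -1.18 ± 0.16. Its 2 probes, which lie next to each other on the plus strand (mm8, chr16:92000763-92000822 and chr16:92000837-92000896), gave -1.16 and -1.20. Mrpl3, a large-subunit protein of the bacterial L3 family, had -1.06 ± 0.17. Only 2 of its 4 probes were measured in the top fraction (mm8, chr9:104935292-104935351 and chr9:104935471-104935530, plus strand), and they gave -1.15 and -0.97. Mrpl41, a mitochondria-specific large-subunit protein, had -1.06 ± 0.23 from 1 of its 2 probes (mm8, chr2:24796185-24796244, minus strand). The other probe of Mrpl41 was not well above background in any fraction. Without the background filter the ratio of Mrpl41 was -0.50 and that of Mrpl3 was -0.61, both short of 2-fold, and Mrps6 alone remained past it. Next in order were Mrpl14 at -0.84 ± 0.22 and Mrps28 at -0.77 ± 0.22. At the other end of the top fraction stood the mitochondria-specific Mrps25 at 0.26 ± 0.21, Mrpl52 at 0.25 ± 0.16 and Mrpl48 at 0.23 ± 0.21. Mrpl47, of the bacterial L29 family, had 0.23 ± 0.15 and Mrpl35, of the L35 family, 0.17 ± 0.20. Of these 5 genes, Mrpl35 alone lay within its spot error of 0. The probes of 2 of them were far apart. Those of Mrpl52 gave 0.00 and 0.49, the second measured in the top fraction alone, so that its ratio was 0.00 with the brightest probe and 0.54 with the scanner software's ratio. Those of Mrpl47 gave 0.04 and 0.42, and its ratio was 0.42 with the brightest probe.

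Each ratio of a gene is relative to the other mRNAs of its own fraction. The log2 ratio in the heavy fraction minus that in the top fraction was used to describe how an mRNA's place in the gradient differed between the siRNAs. It is relative to other mRNAs, and effects of the array or dye enter it as well. This heavy minus top difference was above 0 for 58 of 74 genes, against 50% of all genes. Its median was 0.29, against 0.00 over all 10713 genes. With median centring the median of all genes was -0.87 and that of the family -0.63, below 0 but 0.24 above all genes, and 54 of 74 members lay above the median of all genes. Of the members 6 were higher by 2-fold or more and 0 were lower, with a background of 0.812% higher and 0.7% lower. This background depends on the background correction. With an offset of 0 in it, 201 of the 10713 genes were higher and 136 lower, and 6 members were higher. With the scanner software's ratio 301 were higher and 155 lower, and 7 members were higher. Past 1.5-fold in either direction were 19 of 74 genes, or 25.7%, with a background of 13.4%.

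With loess the heavy minus top difference drew on both ends of the gradient. With median centring the family lay 0.22 below all genes in the top and 0.02 below them in the heavy fraction. The part of the heavy end thus depended on loess. In 36 of 74 genes (48.6%) the ratio was below 0 in the top and above 0 in the heavy fraction, a pattern of 21.4% of all 10650 genes measured on the 3 arrays. The opposite pattern held for 4 genes (5.41%), against 22.2% of all genes. The ratios were ordered top below light below heavy in 36 genes (48.6%), against 20.0% of all genes, and in the reverse order in 6 (8.11%), against 18.0%. The ratio lay below 0 in all fractions in 16 genes (21.6%), near the 20.0% of all genes, and above 0 in all fractions in 6 (8.11%), against 20.0% of all genes. The lowest of the 3 ratios was in the top fraction for 47 genes (63.5%), against 33.5% of all genes. These patterns were counted with loess, and the sign of a ratio in the light and heavy fractions depends on it.

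With loess each of the 2 steps along the gradient carried part of the difference. Light minus top was above 0 in 54 of 74 genes, against 50.5% of all genes, with a median of 0.14, and 1 gene, Mrpl3, was higher by 2-fold (1.09 ± 0.22), against 0.318% of all genes. Past 1.5-fold were 9 of 74, with a background of 8.96%. Heavy minus light was above 0 in 49 of 75 genes, against 47.1% of all genes, with a median of 0.14, and 1 gene passed 1.5-fold, with a background of 8.52%. That gene was Mrpl52 at 0.62, chosen for naming after its value was seen. With median centring light minus top stayed above all genes, by 0.27, while heavy minus light lay 0.10 below them.

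Mrpl41 had the highest heavy minus top difference, 1.25 ± 0.31. Its normalized signal in Eif4g3 siRNA cells was 3356 at the top, 4518 in light polysomes and 5199 in heavy polysomes, against 6992, 5056 and 4565 in control siRNA cells. With this scaling the signal was thus highest in the heavy fraction after Eif4g3 siRNA and in the top fraction after control siRNA. With the measured probes centred, the all-gene median of control heavy over top was 0.87 in place of -0.12. For the genes here and below, the order of fractions within 1 siRNA therefore depends on the scaling between arrays. Mrpl3 followed with 1.16 ± 0.22. On the 2 probes measured in every fraction its signal in Eif4g3 siRNA cells was 1371, 4838 and 6591 in the top, light and heavy fraction, against 2859, 4725 and 6140 in control siRNA cells. Mrpl3 was lowest in the top fraction with either siRNA, and the siRNAs differed mainly there. Over all 4 probes its ratios in the light and heavy fractions were 0.11 and -0.01, with probes of opposite sign in both.

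Mrpl14, of the bacterial L14 family at the interface between the subunits, had a difference of 1.12 ± 0.30. Its signal in Eif4g3 siRNA cells was 21030, 30658 and 30985 in the top, light and heavy fraction, against 37551, 32138 and 25429 in control siRNA cells. With this scaling between arrays, the signal of control siRNA cells was lower in each heavier fraction and that of Eif4g3 siRNA cells was not. Mrps28, of the bacterial S1 family, had 1.05 ± 0.30. Its signal in Eif4g3 siRNA cells was 8021, 10329 and 12873, against 13690, 10631 and 10617 in control siRNA cells. As for Mrpl41 and Mrpl14, the siRNAs differed most in the top fraction and their order turned in the heavy fraction.

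Mrpl20, whose bacterial relative L20 is needed early in assembly of the large subunit, had 1.03 ± 0.29. Its signal in Eif4g3 siRNA cells was 21330, 42845 and 33725 in the top, light and heavy fraction, against 29046, 34796 and 22505 in control siRNA cells. Unlike Mrpl41, Mrpl14, Mrps28 and Mrps6, Mrpl20 had more signal after Eif4g3 siRNA in both polysome fractions, and its heavy ratio of 0.58 ± 0.21 was the highest of the family. Mrps6 had a difference of 1.0 ± 0.22. Its signal in Eif4g3 siRNA cells was 3928, 11780 and 11382, against 8894, 16728 and 12871 in control siRNA cells, so it was lower after Eif4g3 siRNA in every fraction, and by least in the heavy one. Its probes gave 1.02 and 0.98. With the scanner software's own ratio, Mrpl20 had 0.88 and Mrps28 had 0.99, short of 2-fold. Without the background filter Mrpl41 had 0.69 and Mrpl3 had 0.60, and 4 genes stayed past 2-fold. With only the brightest probe of a gene Mrps6 had 0.98, and 5 genes were past 2-fold. With median centring these 6 genes had differences between 0.18 and 0.38, above 0 while the median of all genes was -0.87.

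**Figure D2:**
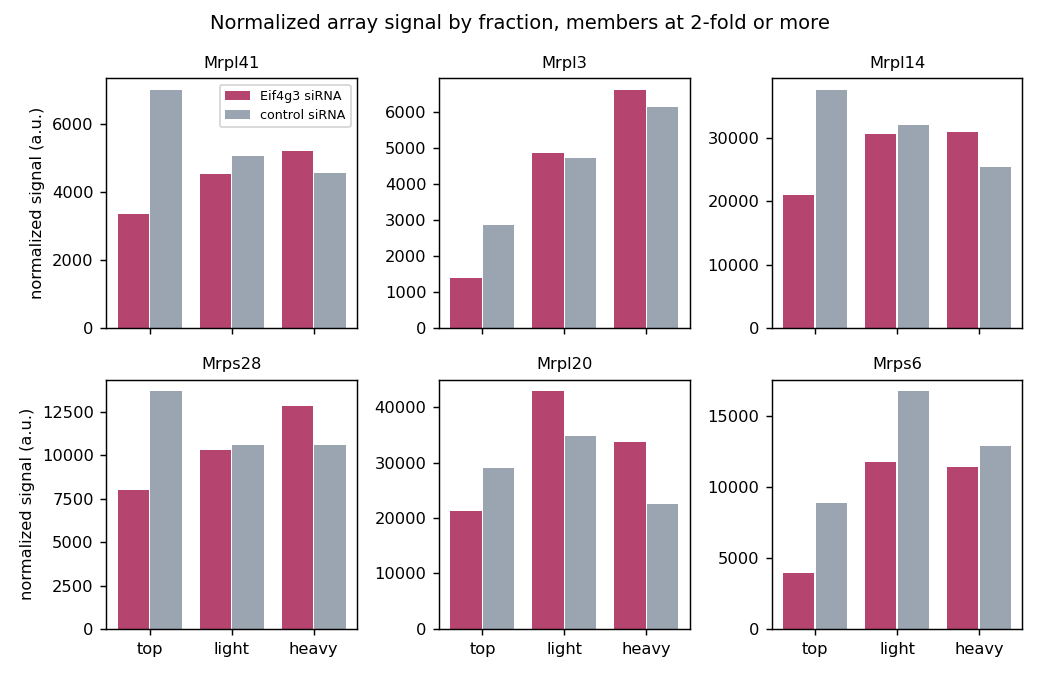
Normalized array signal (arbitrary units, linear axes starting at 0) of the 6 genes with a heavy minus top difference of 2-fold or more, in the top, light and heavy fraction, for Eif4g3 siRNA (left bar, 1 sample) and control siRNA (right bar, 1 sample). In the top fraction the Eif4g3 siRNA bar is the lower one for all 6 genes, such as 3356 against 6992 for Mrpl41, and in the heavy fraction it is the higher one for all but Mrps6.

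The lowest heavy minus top difference was that of Mrpl47, at -0.38 ± 0.21. Its signal in Eif4g3 siRNA cells was 951, 451 and 435 in the top, light and heavy fraction, against 811, 499 and 484 in control siRNA cells, the opposite order of siRNAs at each end from Mrpl41. Its 2 measured probes gave -0.64 and -0.13. Mrpl9, whose bacterial relative extends from the base of the L1 stalk, had -0.20 ± 0.31. Its signal in Eif4g3 siRNA cells was 308, 232 and 254, against 381, 284 and 361 in control siRNA cells, lower after Eif4g3 siRNA in every fraction. The remaining low values were -0.16 ± 0.25 for Mrps9, -0.15 ± 0.23 for Mrpl1, the stalk protein itself, and -0.15 ± 0.42 for the mitochondria-specific Mrpl37. All of these but Mrpl47 lay within their spot error of 0. With a background offset of 0 Mrpl9 had 0.13 and Mrpl37 had 0.22, so their sign was not settled.

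**Figure D3:**
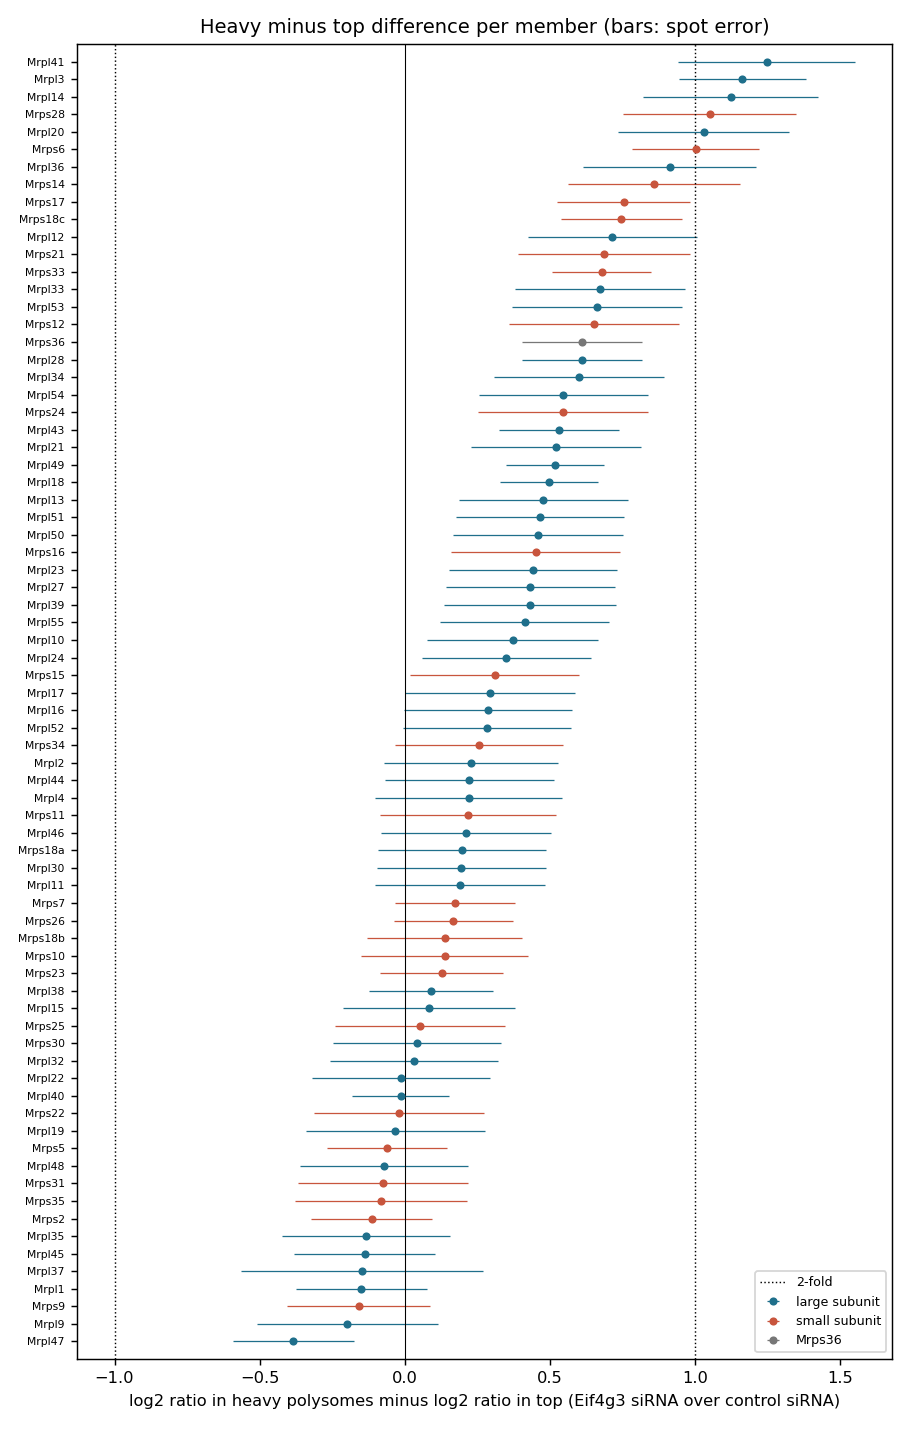
Heavy minus top difference of log2 ratios (Eif4g3 siRNA over control siRNA, horizontal axis) of the 74 genes measured in both fractions, ranked from the highest at the top, with the spot error as bars and colours by subunit. Mrpl41 leads with 1.25 and Mrpl47 ends the order with -0.38, and 58 genes lie above 0 with loess. With median centring the family median was -0.63, which was 0.24 above that of all genes.

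The extremes of the single polysome fractions were mostly other genes. In the heavy fraction Mrpl20 was followed by Mrpl33 at 0.50 ± 0.21, Mrps24 of the bacterial S3 family at 0.48 ± 0.21, Mrpl53 at 0.44 ± 0.21 and Mrps36 at 0.44 ± 0.15. The lowest there among genes measured on all arrays were Mrpl9 at -0.51 ± 0.21, Mrpl37 at -0.30 ± 0.21, Mrps9 at -0.27 ± 0.15, Mrpl11 at -0.27 ± 0.21 and Mrps31 at -0.24 ± 0.20, and Mrps27 had -0.56 ± 0.22. Mrps27 is thus the lowest of the 75 genes in the heavy fraction, with a light ratio of -0.22 ± 0.21. In the light fraction Mrps25 was highest at 0.51 ± 0.21, followed by Mrps23 at 0.32 ± 0.15, Mrpl44, which has a ribonuclease III-like fold, at 0.32 ± 0.12, Mrpl20 at 0.30 ± 0.20 and Mrpl30 at 0.26 ± 0.21. The lowest there were Mrpl11 at -0.66 ± 0.21, Mrps6 at -0.51 ± 0.15, Mrpl21 at -0.39 ± 0.21, Mrpl55 at -0.36 ± 0.21 and Mrpl24 at -0.36 ± 0.21. Mrpl11 was the gene past 1.5-fold in the light fraction, and its ratio was below 0 in all 3.

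Several genes had probes that disagreed, with opposite signs more than 0.5 apart. This held for Mrpl49 and Mrps33 in the top fraction, where the probes of Mrpl49 ran between -0.63 and 0.09 and those of Mrps33 between -0.55 and 0.08. It held for Mrpl3, Mrpl38 and Mrps18b in the light and for Mrpl1, Mrpl3 and Mrps5 in the heavy fraction. Over the family the median SD between probes of a gene was 0.09 at the top, 0.09 in light polysomes and 0.14 in heavy polysomes, against 0.11, 0.16 and 0.15 over all genes.

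By subunit, the large-subunit genes had a median heavy minus top difference of 0.32, with 38 of 48 above 0, and the small-subunit genes 0.22, with 19 of 25 above 0. Their medians were -0.24 and -0.16 in the top fraction, -0.06 and -0.05 in the light and 0.04 and 0.13 in the heavy fraction, so the 2 subunits lay on the same side of 0 in each, with loess. By origin, proteins of bacterial families had a median difference of 0.36, with 39 of 48 above 0, and the mitochondria-specific ones 0.21, with 18 of 25 above 0. In the top fraction the bacterial families had a median of -0.29 and the mitochondria-specific proteins -0.10. Of the 6 genes past 2-fold, 5, all but Mrpl41, encode proteins of bacterial families, as do 48 of the 74 members measured. Whether the subunits or the origins differ was not tested.

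Genes for proteins of the same site in the ribosome can be set side by side. Of the stalk that binds elongation factors, Mrpl12 had a heavy minus top difference of 0.71 ± 0.29, Mrpl10 had 0.37 ± 0.29 and Mrpl11 had 0.19 ± 0.29. Around the exit of the peptide tunnel, Mrpl23 had 0.44 ± 0.29, Mrpl24 had 0.35 ± 0.29, Mrpl22 had -0.01 ± 0.31, Mrpl47 had -0.38 ± 0.21 and Mrpl45, which contacts the inner membrane, had -0.14 ± 0.24. Among the small-subunit proteins near the decoding site, Mrps12 had 0.65 ± 0.29 and Mrps5 had -0.06 ± 0.21. Whether genes for proteins of 1 site differ from each other was not tested.

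In control siRNA cells the genes differed widely in their place in the gradient. After scaling of the arrays to each other, the log2 signal in the heavy over the top fraction was above 0 in 25 of 74 genes, against 45.2% of all genes. Its median was -0.36, against -0.12 over all genes. Its values ran between -1.93 and 2.11. With each array's measured probes centred on their median the family lay 0.12 above all genes in place of 0.24 below them. The place of the family as a whole was thus not settled. The order of its members below is that of the first scaling, and it was not compared with the order under the other. Mrpl37 had the highest value, 2.11, followed by Mrpl4 at 2.04, Mrpl3 at 1.10, Mrpl39 at 1.09 and Mrpl22 at 0.85. The lowest were Mrpl55 at -1.93, Mrpl52 at -1.74, Mrps12 at -1.62, Mrpl21 at -1.59 and Mrpl18 at -1.35.

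The signals of Mrpl4 and Mrpl55, near and at the ends of this order, show both kinds of position, and those of Mrpl3 are given above. For Mrpl4, of the bacterial L4 family, the signal in Eif4g3 siRNA cells was 275, 997 and 1321 in the top, light and heavy fraction, against 338, 891 and 1393 in control siRNA cells. For Mrpl55, of the bacterial L31 family, it was 10799, 5938 and 3786 in Eif4g3 siRNA cells, against 13768, 7624 and 3625 in control siRNA cells. Both kept the same order of fractions with either siRNA, Mrpl4 with most signal in the heavy and Mrpl55 in the top fraction. Over the family, the fraction of highest signal after Eif4g3 siRNA was the top for 26, the light for 26 and the heavy for 22 of 74 genes, against 34, 22 and 18 after control siRNA. Over all genes the shares were 47.6%, 21.6% and 30.8% after Eif4g3 siRNA and 44.8%, 18.9% and 36.3% after control siRNA. The fraction of highest signal depends on the scaling between arrays, for these counts and for single genes. With the measured probes centred, control heavy over top was above 0 in 65 of 74 members and control light over top in 71 of 74. Of all genes 71.7% and 80.2% then lay above 0. Across the 74 genes, the control heavy over top value and the heavy minus top difference had Pearson's r = -0.17 and Spearman's rho = -0.22. Both share the control channel's signals, which alone gives a value below 0, and over all genes r was -0.22.

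The size of the difference went with the signal of a gene. Across the 74 genes, the mean log2 signal of both channels in the top fraction and heavy minus top had r = 0.59 and rho = 0.64. Over all 10713 genes r was 0.10, and both are descriptions over genes that share the arrays. Among the 37 genes with the higher top signal the median difference was 0.52 and 36 lay above 0, and among the 37 with the lower signal it was 0.08 and 22 lay above 0. The offset used in the background correction pulls ratios of dim spots towards 0, so this split was repeated without it, a check chosen after the data were seen. With an offset of 0 the medians were 0.53 and 0.21, with 36 and 30 above 0, and with the scanner software's ratio they were 0.54 and 0.29, with 36 and 30 above 0. The gap was smaller but present in these settings. The split was not repeated with median centring in place of loess, so whether the gap depends on loess was not tested.

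**Figure D4:**
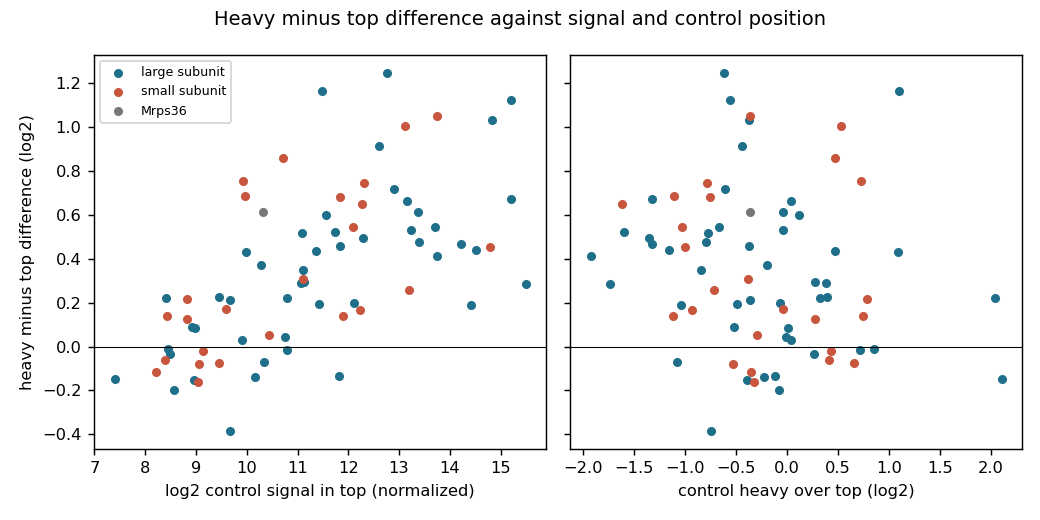
Heavy minus top difference of log2 ratios (Eif4g3 siRNA over control siRNA, vertical axes, loess) of the 74 genes against the log2 normalized control signal in the top fraction (left) and against the control log2 heavy over top signal (right), coloured by subunit. The genes of higher signal lie higher in the left panel, while in the right panel genes of every gradient position lie above 0 (r = -0.17). The control signal in the top fraction is also part of the difference, which alone gives an upward slope in the left panel.

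The 7 mitochondrial ribosomal proteins whose names do not start with Mrpl or Mrps lay on the same side. All 7 had a heavy minus top difference above 0 with loess, against 50% of all genes, with a median of 0.39. Their median in the top fraction was -0.53, with 1 of 7 above 0, against 50.4% of all genes. Chchd1, a small-subunit protein, had 0.88 ± 0.21, with ratios of -0.60 in the top and 0.28 in the heavy fraction. Mrp63, a large-subunit protein, had 0.85 ± 0.29. The lowest were Dap3, a small-subunit protein that binds GTP, at 0.04 ± 0.29, and Ptcd3, a pentatricopeptide-repeat protein of the small subunit, at 0.06 ± 0.21.

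Other nuclear genes for mitochondrial proteins fell on both sides. The counts below are with loess, where 50% of all genes had a heavy minus top difference above 0. Of 78 measured subunits of the respiratory chain and ATP synthase, 70 had a difference above 0, with a median of 0.55. Higher by 2-fold were 13, against 0.812% of all genes. The highest were Ndufa1 of complex I at 1.40 ± 0.21 and Cox6a1 of complex IV at 1.38 ± 0.30, and the lowest was Sdha of complex II at -0.88 ± 0.38. Of 18 protein import genes 14 lay above 0, with a median of 0.34, and the outer-membrane translocase subunit Tomm7 had 0.85 ± 0.30 while the channel Tomm40 had -0.58 ± 0.41. The other mitochondrial lists had medians near 0. Of 21 mitochondrial translation factors 9 lay above 0, with a median of -0.09, and the elongation factor gene Tufm had -0.99 ± 0.30, with a heavy ratio of -0.95. Of 17 genes for expression and maintenance of the mitochondrial genome 8 lay above 0, with a median of -0.01, and the single-stranded DNA binding protein Ssbp1 had 0.89 ± 0.21. Of 13 mitochondrial aminoacyl-tRNA synthetases 5 lay above 0, with a median of -0.07 and values between -0.30 for Cars2 and 0.18 for Ears2.

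With loess the cytosolic ribosomal proteins lay on the other side of 0 in heavy minus top, though not in heavy minus light. Of 77 genes, 17 had a heavy minus top difference above 0, against 50% of all genes, with a median of -0.23. Lower by 2-fold were 5, against 0.7% of all genes. In the top fraction their median was 0.50 and 76 of 77 lay above 0, where the mitochondrial ribosomal proteins had -0.21 and 12 of 74. In the heavy fraction their median was 0.29. In heavy minus light their median was 0.21 and 61 of 77 lay above 0, the same side as the 0.14 and 49 of 75 of the mitochondrial ribosomal proteins. In light minus top their median was -0.49, with 5 of 77 above 0. Of all genes 50.4% lay above 0 in the top fraction, 47.1% in heavy minus light and 50.5% in light minus top. Rpsa had the lowest difference, -1.68 ± 0.24, and Rpl21 the highest, 0.44 ± 0.29.

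**Figure D5:**
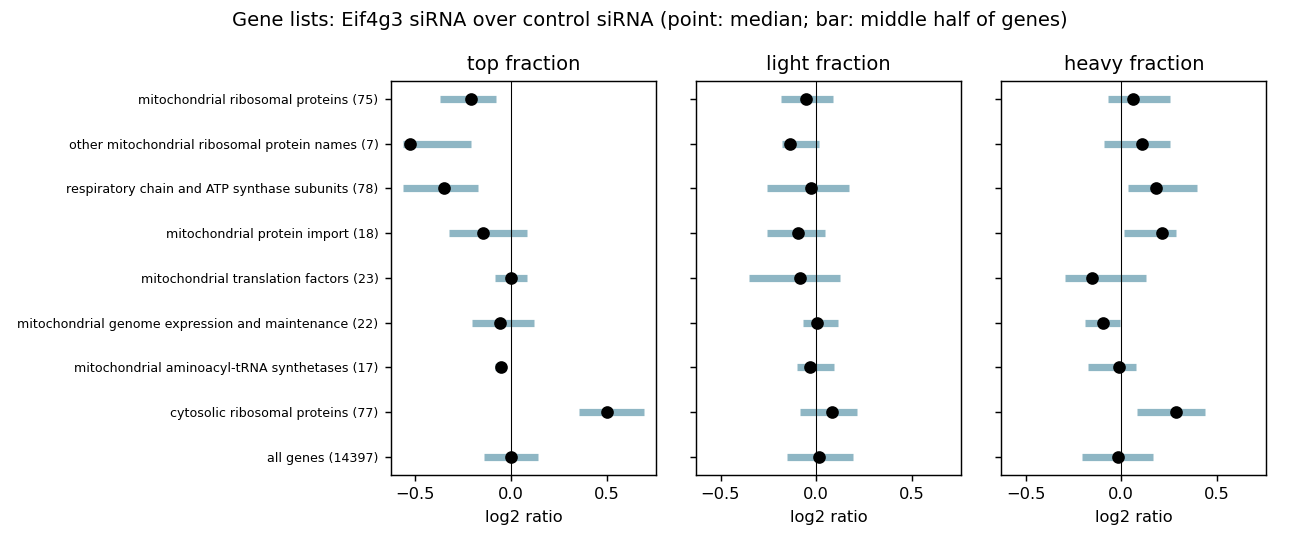
Median log2 ratio (Eif4g3 siRNA over control siRNA, points, with the interquartile range as bars, loess) of mitochondrial ribosomal proteins, 7 other gene lists and all genes in the top, light and heavy fraction, 1 array each, with the number of genes in brackets. In the top fraction the mitochondrial ribosomal proteins lie at -0.21 and the cytosolic ribosomal proteins at 0.50.

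Promoters of 66 of the 75 genes were found in the RefSeq table, covering 250 bases before and 50 bases from the annotated start on. The ETS-family motif CCGGAAG was present on either strand in 24 of them (36.4%), against 2683 of all 27025 genes (9.93%), 24 of 57 cytosolic ribosomal protein genes (42.1%) and 17 of 69 respiratory chain and ATP synthase genes (24.6%). The NRF1 core motif GCATGCG was present on either strand in 8 (12.1%), against 1085 of all genes (4.01%), 5 of 57 cytosolic ribosomal protein genes (8.77%) and 11 of 69 respiratory chain and ATP synthase genes (15.9%). The letters of one motif do not contain the other, and a match describes letters in a window and not binding. The 23 measured genes with the ETS motif had a median heavy minus top difference of 0.46, and the 42 without it 0.22. The 8 with the NRF1 core had 0.22 and the 57 without it 0.35. Of the 5 promoters printed above, Mrpl3 alone holds the ETS motif and Mrpl9 alone the NRF1 core. A C at the annotated start followed by 4 pyrimidines, the mark of terminal oligopyrimidine mRNAs, was found in 0 of 66 genes, against 3.01% of all genes, 13 of 57 cytosolic ribosomal protein genes (22.8%) and 4 of 69 respiratory chain and ATP synthase genes (5.80%). Annotated starts can differ from the starts used in these cells.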

How the data were processed

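Cultured mouse cells treated with Eif4g3 siRNA or control siRNA were compared in 3 polysome gradient fractions, a 2-colour array each. Spot intensity in each channel, on a linear scale, and the log10 ratio of Cy5 over Cy3 with its error came from Agilent Feature Extraction 10.5.1.1 in files the authors deposited. Flags for background, saturation and outliers are 0 or 1, per the file headers. Log2 ratios in the value table deposited by the authors differed from the log10 ratio on the same base by at most 2.76e-06. This settled its scale and direction. Its column medians were -0.09, -0.01 and 0.22 for the top, light and heavy array, and whether the authors centred them is not stated in the files or labels.

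Ratios were computed with limma 3.58.1 in R 4.3.3 from mean signals and median backgrounds, by normexp with an offset of 50 and loess within each array, with control spots at weight 0. Spots with outlier marks were left out (220, 170 and 183), and 0 were saturated. The offset compresses ratios, most on the top array, where their slope on the software's ratios was 0.57, against 0.72 on each of the other arrays. Measured probes of a gene were averaged, and differences between arrays used probes measured on both. Signals were scaled between arrays by Aquantile, and signals printed per gene are over probes measured on all 3 arrays. A call is 2-fold. All 75 names are current symbols. Probe positions are on mm8, per the file headers, and promoters on GRCm38.p6.

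The genes, lists and alternatives were chosen with earlier results of these data known. Named were the siRNA target, the 5 highest and 5 lowest genes of each ratio, of heavy minus top and of control heavy over top, genes past 2-fold, genes with disagreeing probes, and from other lists members at either end of heavy minus top. Genes of the stalk, the tunnel exit and the decoding site were named by their place in the ribosome. The number of arrays limits precision. The background correction and loess within 1 array were tested on simulated data. The filter, the averaging of probes, the scaling between arrays and the differences between arrays were not. Relations with protein length were not analysed here. Alternatives were other background, scaling, filter, probe and threshold choices.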

Additional observations from a re-analysis of the deposited data

Results flagged for a closer look

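The medians of the mitochondrial ribosomal protein genes lay on opposite sides of 0 in the heavy and the top fraction, with a heavy minus top median of 0.29. They also did so in the heavy and the light fraction, with a heavy minus light median of 0.14. These differences between fractions were not tested, since each fraction is 1 array, and the sides of 0 in the light and heavy fractions depend on loess.

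Mrps27 gave a signal in 1 channel alone in the top fraction. Its processed signal there was 52.3 in Eif4g3 siRNA cells, not well above background, against 76.7 in control siRNA cells. In the light fraction it was 196 in Eif4g3 siRNA cells against 273 in control siRNA cells, and in the heavy fraction 281 against 482.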

How the results depend on the processing

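The family median in the top fraction kept its sign in 9 of 9 alternatives, between -0.29 and -0.19. The software's ratio and the deposited table hold the same values, so they are not separate checks here or below. Median centring in place of loess moved the light median to 0.81 with 13 genes past 2-fold, the heavy median to -0.75 with 16, heavy minus top to -0.63 with 13, heavy minus light to -1.57 with 72 and light minus top to 0.99 with 35. The medians of all genes moved with them, to 0.62, -0.73, -0.87, -1.47 and 0.72. Of all genes, 2506 of 14093 then passed 2-fold on the same side in the light and 3810 of 14397 in the heavy fraction. For heavy minus top 4131 of 10713 did so. For heavy minus light they numbered 10355 of 13686, and for light minus top 2637 of 10676. Centring the measured probes of the control channel moved heavy over top to 0.99 and light over top to 1.28, with all genes at 0.87 and 0.95. At 1.5-fold in place of 2-fold the calls numbered 6 in the top and 1 in the light fraction, 19 for heavy minus top, 1 for heavy minus light and 9 for light minus top. The backgrounds at 1.5-fold were 5.29%, 6.11%, 13.4%, 8.52% and 8.96% in this order. Without the background filter 1 gene was called in the top fraction, with 35 of all 27745 genes higher and 21 lower. Light minus top then had 0 calls, with 29 of all 27732 genes higher and 64 lower. It had 2 calls with the software's ratio and 2 with the deposited table, with 166 of all 10676 genes higher and 214 lower. Over the other alternatives heavy minus top stayed above 0, up to 0.44. Heavy minus top had 4 calls without the filter, with 77 of all 27733 genes higher and 68 lower. With the brightest probe it had 5 calls, with 104 of all 10713 genes higher and 90 lower. Of 75 single-gene values of heavy minus top 20 moved past the spot error and 8 changed sign, all of Mrpl1, Mrpl9 or Mrpl37. Of 70 in the top fraction 10 moved and 1 changed sign, that of Mrpl35 without the filter. None of the values that changed sign had been called. The causes were not tested. No paired analysis was possible because each fraction is 1 array and holds both siRNAs. With 1 array per fraction no replicate could be left out. The top array, with the weakest signal over background, limits every comparison with it.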
